A study of Mus musculus with 19 samples.

Results

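Grb14, Grb10, Irs1, Irs2 and Insr encode the insulin receptor and the adaptor proteins that dock on it, and they were measured in 19 mouse medulloblastomas, each on 1 Affymetrix array. They are 5 of the 18193 genes with a probe set of their own, and were chosen by symbol, with Grb14 singled out because its signal in resistant tumours lay above that in vehicle tumours. They have 10 probe sets of the 45037 on the array once control probe sets are left out: 2 for Grb14, 3 for Grb10, 3 for Insr, 1 for Irs1 and 1 for Irs2. Of these, 7 passed the filter on low signals: 1 for Grb14, 2 for Grb10, 2 for Insr, 1 for Irs1 and 1 for Irs2.

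The tumours were allografts of cells dissociated from Ptch+/-p53-/- medulloblastomas and grown under the skin of the flank of Harlan nu/nu mice, so a sample can hold host tissue of that site. Ptch is the receptor that restrains Hedgehog signalling, and its heterozygous loss together with loss of p53 is shared by all groups. The groups were 3 tumours of vehicle-treated mice, called sensitive in the labels, 8 tumours of mice given 40 mg/kg NVP-LDE225 and another 8 given 160 mg/kg, all called resistant. NVP-LDE225 is an antagonist of Smoothened, the membrane protein that passes on the Hedgehog signal. Drug exposure and resistance therefore cannot be told apart. The labels do not say whether the tumours of a group came from separate donor tumours, so a p-value here reflects variation between the arrayed samples alone. In bulk tissue, fewer cells of a type and less RNA per cell cannot be told apart.

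The insulin receptor is a tyrosine kinase that, once it binds insulin, phosphorylates the docking proteins Irs1 and Irs2, which recruit PI3-kinase and start Akt signalling. Grb10 and Grb14 belong to the Grb7 family of adaptors. They bind the active receptor and inhibit its kinase, and so act against Irs1 and Irs2. In the developing cerebellum, Irs1 has been linked to the growth of granule neuron precursors under Hedgehog signalling, the cells from which this kind of medulloblastoma arises.

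The array medians ran from a signal of 32.7 to 49.7, and pairwise correlations of arrays from 0.908 to 0.963. Vehicle tumour 3 and 160 mg/kg tumour 2 had the lowest mean correlations with the other arrays, 0.927 and 0.930. All 8 markers of granule neuron precursors and medulloblastoma were measured, with summed signals of 8624 to 9136 in the vehicle group, 10746 to 13570 in the lower-dose group and 8741 to 14996 in the higher-dose group, and 0 of them were at 0 on every array. The brightest, Zic1 and Neurod1, weigh most in these sums. Zic1, Neurod1 and Pax6 lay above all vehicle tumours in 15, 16 and 12 of 16 treated tumours. Atoh1, Barhl1, Gli1 and Mycn lay below all vehicle tumours in 13, 12, 12 and 10, and above them in 1, 3, 3 and 2. Gli1 reached a signal of 2638 in treated tumours, against a vehicle mean of 329. Pax6 lay below all vehicle tumours in 4, and Zic2 lay above them in 7 and below them in 4. The lowest treated signals were 22.5 for Atoh1 and 32.7 for Barhl1, against vehicle means of 1313 and 614. Signals are compared between samples for a given probe set only, since probe sets differ in how brightly they hybridize.

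**Figure D1:**
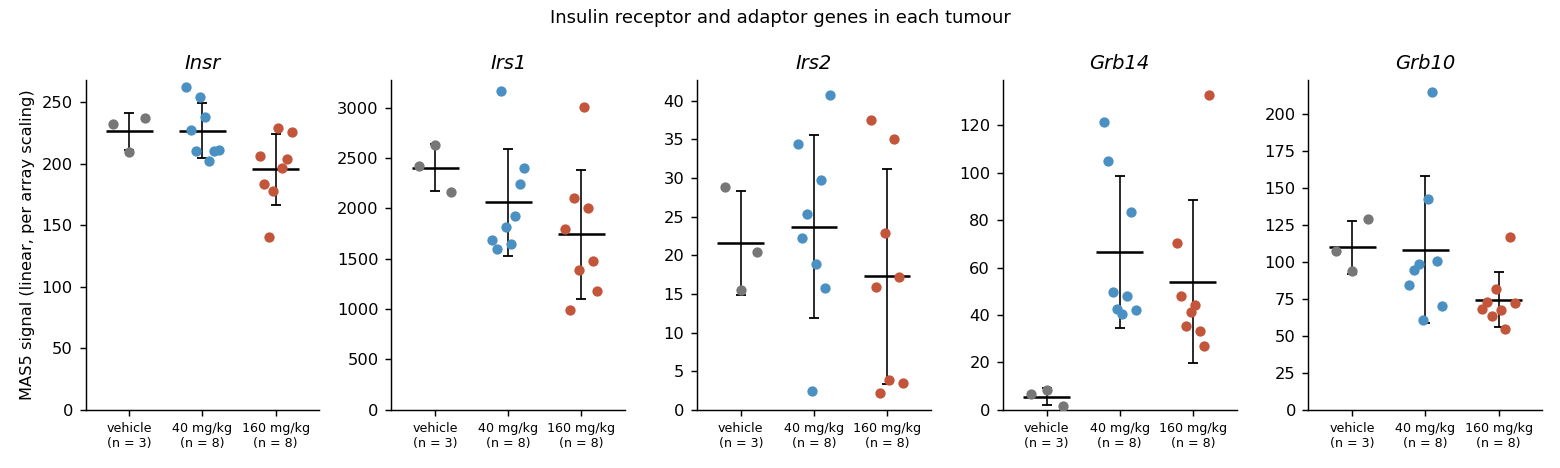
MAS5 signal (linear axis from 0) of the representing probe set of each gene in vehicle tumours (n = 3) and tumours treated with 40 or 160 mg/kg NVP-LDE225 (n = 8 per dose). Points are tumours and bars are the mean ± SD. The 16 treated tumours lie between 26.8 and 132.7 for Grb14, above the 3 vehicle tumours, while the groups overlap for the other 4 genes.

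Insr, the receptor itself, differed little between tumours. Its representing probe set, 1434446_at, had signals of 232.5, 209.2 and 237 in vehicle tumours. At 40 mg/kg it ran from 201.8 through a median of 219 to 262, and at 160 mg/kg from 140.2 through a median of 199.7 to 229.2. The groups overlapped, with 3 of 16 treated tumours above all vehicle tumours and 7 below them, and 6 of those 7 had the higher dose. The coefficient of variation over the treated tumours was 14.1%, the smallest among the 5 genes. The other kept Insr probe set, 1450225_at, had a mean signal of 18.9 ± 7.56 (SD, n = 16) in treated tumours and 24.7 ± 3.32 (SD, n = 3) in vehicle tumours. The third, 1421380_at, had 13.8 ± 4.68 and 13.8 ± 5.17 in the same order and did not pass the filter.

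Irs1, the first of the docking proteins, was among the brightest probe sets of every array, between the 95th and the 98.9th percentile. Its signals were 2422, 2625 and 2159 in vehicle tumours. At 40 mg/kg Irs1 ran from 1591 through a median of 1869 to 3167, and at 160 mg/kg from 987.5 through a median of 1635 to 3009. Most treated tumours were lower than vehicle: 12 of 16 lay below all vehicle tumours and 2 lay above them, namely 40 mg/kg tumour 3 with 3167 and 160 mg/kg tumour 5 with 3009. The lowest Irs1 signals, 987.5 and 1175, belonged to 160 mg/kg tumours 2 and 8.

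Irs2, the other docking protein, had a single probe set that was dim and scattered. Its signals were 28.9, 15.5 and 20.4 in vehicle tumours. They ran from 2.4 through a median of 23.8 to 40.8 at 40 mg/kg, and from 2.2 through a median of 16.6 to 37.5 at 160 mg/kg. The groups overlapped fully, with 5 treated tumours above and 4 below all vehicle tumours. The 4 low tumours had signals of 2.2 to 3.8, near the pseudocount of 2.5 that was added before taking logarithms, and 3 of them had the higher dose.

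Grb14, the inhibitory adaptor, was near the bottom of the array in vehicle tumours and at mid-scale in every resistant tumour. The signals of probe set 1417673_at were 6.6, 8.3 and 1.7 in vehicle tumours, between the 2.22nd and the 23.9th percentile of their arrays. At 40 mg/kg they ran from 40.6 through a median of 48.85 to 121.5, and at 160 mg/kg from 26.8 through a median of 42.9 to 132.7. These treated values lay between the 42.7th and the 70.8th percentile of their arrays. All 16 treated tumours were above all vehicle tumours. Among the 31143 kept probe sets, 1.83% showed that pattern, and Grb14 was selected for it, so nothing is read from the count of 1 in 7 member probe sets.

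The resistant tumours themselves differed in Grb14 by 4.95 times between the lowest and the highest. Tumours 8 and 1 of the 160 mg/kg group had 132.7 and 70.4, and tumours 1, 2 and 7 of the 40 mg/kg group had 121.5, 105 and 83.3. The remaining 11 lay between 26.8 and 49.8. High and low tumours thus occurred at both doses.

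A further probe set named for Grb14, 1457526_at, did not show the difference. Its signals were 4.96 ± 4.14 (SD, n = 16) in treated tumours and 7.00 ± 1.97 (SD, n = 3) in vehicle tumours. It lay at or below the 27.0th percentile of every array, under the filter, and 3 of 16 treated tumours were above all vehicle tumours. The platform table ties 1417673_at to the reference messenger RNA of Grb14 and 1457526_at to an expressed sequence tag. All statements on Grb14 therefore rest on 1 probe set.

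Grb10, the paralogue of Grb14 and an imprinted gene, did not share the pattern. Its representing probe set, 1425458_a_at, had signals of 107.3, 93.7 and 129.1 in vehicle tumours. It ran from 61.0 through a median of 96.45 to 215.4 at 40 mg/kg and from 54.5 through a median of 70.05 to 116.7 at 160 mg/kg. Treated tumours lay on both sides, with 10 of 16 below all vehicle tumours and 2 above them, 40 mg/kg tumours 5 and 6 with 142.5 and 215.4. The other Grb10 probe sets were dim: 1425457_a_at had 18.8 ± 8.20 (SD, n = 16) in treated and 16.4 ± 9.28 (SD, n = 3) in vehicle tumours, and 1430164_a_at, which did not pass the filter, had 15.8 ± 5.30 and 17.7 ± 8.87 in the same order.

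The sequences around the starts of both paralogues are shown because Grb14 and Grb10 are paralogues with different patterns. RefSeq windows (GRCm38.p6, 250 bases before to 50 after each gene's start, printed 5′ to 3′ on the gene's strand) were at hand for 4 of the 5 genes, with 5 windows in all. The Grb14 window is chr2:65022717-65023016 on the minus strand, and the Grb10 windows are chr11:12037371-12037670 and chr11:12027922-12028221, also on the minus strand. Capitals mark CpG dinucleotides.
Grb14: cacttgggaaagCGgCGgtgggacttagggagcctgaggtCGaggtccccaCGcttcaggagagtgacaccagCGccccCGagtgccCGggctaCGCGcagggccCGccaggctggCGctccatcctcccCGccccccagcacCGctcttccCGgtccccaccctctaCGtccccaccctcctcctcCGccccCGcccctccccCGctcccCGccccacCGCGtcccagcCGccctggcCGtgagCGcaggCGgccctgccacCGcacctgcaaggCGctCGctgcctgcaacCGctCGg
Grb10, upstream window: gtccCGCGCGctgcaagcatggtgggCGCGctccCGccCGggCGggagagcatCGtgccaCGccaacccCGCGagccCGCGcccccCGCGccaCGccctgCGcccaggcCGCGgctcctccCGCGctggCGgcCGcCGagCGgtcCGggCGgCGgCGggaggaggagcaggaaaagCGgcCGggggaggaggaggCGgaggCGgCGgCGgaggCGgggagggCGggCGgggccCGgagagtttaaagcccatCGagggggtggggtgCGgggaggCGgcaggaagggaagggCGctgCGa
Grb10, downstream window: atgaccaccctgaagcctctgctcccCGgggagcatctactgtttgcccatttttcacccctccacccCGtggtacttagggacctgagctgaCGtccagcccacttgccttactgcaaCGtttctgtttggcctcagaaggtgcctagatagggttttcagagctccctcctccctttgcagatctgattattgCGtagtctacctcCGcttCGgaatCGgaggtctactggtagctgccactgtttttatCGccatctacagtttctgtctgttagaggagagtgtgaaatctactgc
The Grb14 window has a GC content of 75.3% and 30 CpG dinucleotides. The upstream Grb10 window has 80.0% and 45, and the downstream one 52.3% and 9, against medians of 52.7% and 7 over 32851 windows. CCACCCA, the core of the motif bound by Gli proteins, TGTTTAC, a forkhead motif, and CAGATG, an E-box, were searched on both strands, and none of these motifs contains another. The windows of Grb14, Grb10, Irs1 and Irs2 hold 0 matches to any of them, whereas 9.30%, 3.65% and 17.2% of all windows hold each motif. This says only that these letters are not in these windows.

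Set against vehicle as a description, the mean log2 signal of both doses differed by 2.92 for Grb14 (SE 0.39), -0.11 for Insr (SE 0.12), -0.40 for Irs1 (SE 0.23), -0.35 for Irs2 (SE 0.61) and -0.34 for Grb10 (SE 0.26). These are differences of log2(signal + 2.5) with 3 vehicle and 16 treated tumours, and no test is given because Grb14 was chosen on this contrast. The size for Grb14 depends on the pseudocount, since its vehicle signals are close to it: the difference was 3.25 with a pseudocount of 1 and 1.73 with a pseudocount of 16. By dose, Grb14 differed from vehicle by 3.09 at 40 mg/kg and 2.75 at 160 mg/kg (SE 0.42 each). Irs1 differed by -0.26 and -0.54 (SE 0.25 each) and Grb10 by -0.11 and -0.57 (SE 0.28 each), so their means were further from vehicle at the higher dose.

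The comparison between doses did not enter the choice of genes and was tested with limma, an analysis of all kept probe sets in a single model. All 7 kept probe sets had lower means at 160 than at 40 mg/kg, and 0 passed at an adjusted p under 0.05, where 0% of all 31143 probe sets passed. The array medians were also lower at the higher dose, on average 5.32 against 5.37 on the log2 scale. The share of all probe sets with a lower mean is not given here, so nothing is read from the shared direction. Grb10 averaged 74.6 ± 18.7 (SD, n = 8) in tumours given 160 mg/kg and 108 ± 49.6 (SD, n = 8) in tumours given 40 mg/kg, a log2 difference of -0.45 (95% interval -0.88 to -0.03; limma adjusted p = 0.711). Insr averaged 195 ± 28.6 (SD, n = 8) in tumours given 160 mg/kg and 227 ± 22.5 (SD, n = 8) in tumours given 40 mg/kg, a log2 difference of -0.22 (95% interval -0.42 to -0.02; limma adjusted p = 0.696). The unadjusted p-values were 0.0379 for Grb10 and 0.0330 for Insr, and 2122 probe sets reached an unadjusted p under 0.05.

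Grb14 averaged 54.0 ± 34.4 (SD, n = 8) in tumours given 160 mg/kg and 66.6 ± 32.2 (SD, n = 8) in tumours given 40 mg/kg, a log2 difference of -0.34 (95% interval -0.98 to 0.31; limma adjusted p = 0.872). The log2 differences were -0.28 for Irs1 (95% interval -0.67 to 0.10) and -0.60 for Irs2 (95% interval -1.62 to 0.42), with limma adjusted p = 0.801 and 0.851. The spread within a dose exceeded the difference between doses for Grb14, Irs1 and Irs2, and doses could differ by as much as these intervals allow.

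**Figure D2:**
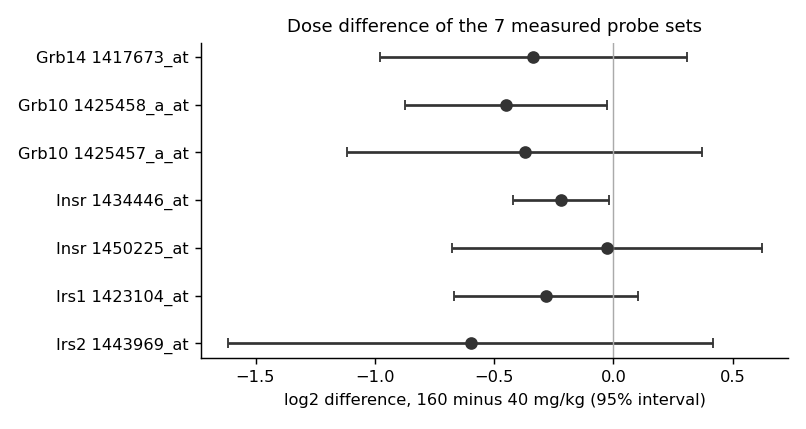
Log2 difference of 160 minus 40 mg/kg (points) with 95% intervals (lines) for the 7 kept probe sets, n = 8 tumours per dose. All points lie below 0, from -0.03 for Insr 1450225_at to -0.60 for Irs2, and 0 passed after adjustment over all probe sets.

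Whether the genes varied together was asked across the 16 resistant tumours, which leaves vehicle out. The 10 pairs of the 5 genes, and Grb14 with Gli1, with Gli2 and with the mean of 13 neuronal maturation genes, gave 13 correlations, of which 0 passed after Benjamini-Hochberg adjustment and 0 had an unadjusted permutation p under 0.05. The highest was Grb14 with Insr (r = 0.45, permutation p = 0.0584, adjusted p = 0.759; rho = 0.42, permutation p = 0.101, adjusted p = 0.942). Its r was 0.28 without the 2 tumours farthest from the Grb14 median, 0.29 within 40 mg/kg and 0.44 within 160 mg/kg. Grb14 and Grb10 had r = -0.01 (permutation p = 0.976) and Grb14 and Irs1 r = -0.21 (permutation p = 0.429). The relations of Grb14 with Gli1, a transcription factor induced by Hedgehog signalling (r = 0.05, permutation p = 0.820), and with Gli2, an activator of Gli1 (r = 0.27, permutation p = 0.305), did not pass either. The adjusted p of these 4 was 0.976 each.

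The genes whose levels were most like Grb14 over these 16 tumours were sought among 12740 named genes, by Pearson r of log2 signal. The 6 highest were Prickle1 (0.86), a planar cell polarity protein, Tspan2 (0.83), a tetraspanin of oligodendrocytes, Evi5l (0.83), Mog (0.82), a protein of the outer myelin sheath, Tns3 (0.81), an adhesion adaptor, and Map7 (0.81), a microtubule-binding protein. The 3 lowest were the splicing factor Srsf2 (-0.82), Pcna (-0.82), the clamp of DNA replication, and Tmem209 (-0.78). These values are extremes picked from all genes and are given as a description with no p. Within 40 mg/kg the r of the 6 highest ran from 0.84 to 0.94 and within 160 mg/kg from 0.72 to 0.90.

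The tumours highest in Grb14 stood out in these genes. In 40 mg/kg tumours 1 and 2 and 160 mg/kg tumour 8, with Grb14 signals of 121.5, 105 and 132.7, Mog had signals of 60.1, 53.3 and 27.2, and in the other 13 treated tumours it ran from 1.3 to 10.8. Tspan2 had 293.6, 244.2 and 246.7 in the same 3 tumours. Their Pcna signals, 3571, 3589 and 3581, were the lowest of the treated tumours, whose highest was 4842. The vehicle tumours did not follow the relation: vehicle tumour 3 had a Mog signal of 17.6 and a Pcna signal of 3615 with the lowest Grb14 signal of all, 1.7.

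The mean of oligodendrocyte markers, a list added after these values were seen, varied with Grb14, though its genes did so unevenly. The summed signal of the 11 genes measured ran from 1814 to 2210 in the vehicle group, from 1180 to 7087 in the lower-dose group and from 869.9 to 6107 in the higher-dose group. In resistant against vehicle tumours 1 of the 11, the tight junction gene Cldn11, was called higher and 0 lower. Of all genes, 2.84% were called higher and 2.45% lower. The mean of the list had r = 0.81 with Grb14 over 16 tumours, 0.96 within 40 mg/kg and 0.63 within 160 mg/kg. Mog, picked above for its high r with Grb14 in these same tumours, is part of that mean. The r values of the list are therefore a description only. By gene, r over 16 tumours ran from -0.03 for Mbp to 0.82 for Mog, with 0.49 for Olig1 and 0.48 for Olig2. The 160 mg/kg tumour 6 had the lowest sum, 869.9, with Mog at 1.3, and a Grb14 signal of 33.3, above the 8.3 of the highest vehicle tumour. The part of these cells in the Grb14 level was not tested.

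**Figure D3:**
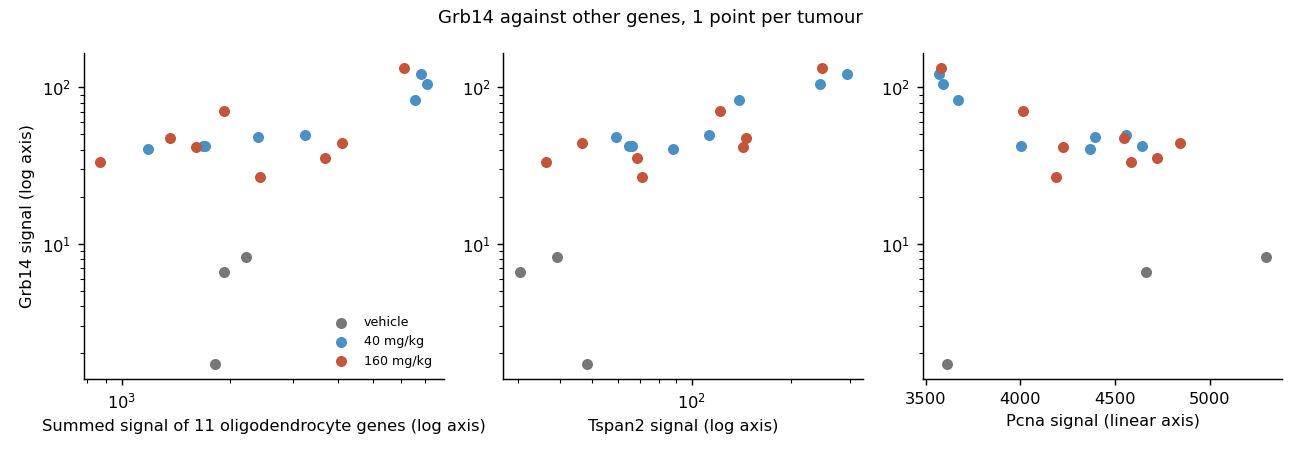
Grb14 signal (log axis) of each tumour against the summed signal of 11 oligodendrocyte genes (log axis), Tspan2 (log axis) and Pcna (linear axis). Points are vehicle tumours (n = 3) and tumours treated at 40 and 160 mg/kg (n = 8 each). Treated tumours with more Grb14 tend to lie further right in the first 2 panels and further left in the last, with exceptions. In the first panel, 160 mg/kg tumour 1 has a Grb14 signal of 70.4 at a sum of 1930, and 160 mg/kg tumour 5 has 44.4 at 4115. The vehicle tumours lie below the treated ones at Grb14 signals of 1.7 to 8.3.

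Each of the 5 genes was also set against 8 marker lists of cell types that such a graft could hold, a comparison chosen after the data were seen. Of 40 correlations over 16 resistant tumours, 5 had an unadjusted permutation p under 0.05 and 2 passed after adjustment. For Grb14, r ran from -0.42 with adipocyte to 0.30 with astrocyte markers (adjusted p of 0.619 or more by permutation). Irs1 with granule neuron precursor markers (r = 0.51, permutation p = 0.0438, adjusted p = 0.351) did not pass. Irs2 with macrophage markers (r = 0.53, permutation p = 0.0306, adjusted p = 0.306) did not pass either. Grb10 varied with skeletal muscle markers such as the muscle actin Acta1 and creatine kinase Ckm (r = 0.81, permutation p = 0.00110, adjusted p = 0.0324; rho = 0.71, permutation p = 0.00266, adjusted p = 0.0504). The 3 treated tumours with the most Grb10, 40 mg/kg tumours 6 and 5 and 160 mg/kg tumour 7, had summed muscle signals of 7641, 15804 and 5515. Those of the other treated tumours ran from 117.1 to 2046 and of the vehicle tumours from 589.7 to 2707. Without the 2 tumours farthest from the Grb10 median r was 0.66 (adjusted p = 0.171 by permutation), so the call was lost without them, and it was 0.79 within 40 and 0.77 within 160 mg/kg.

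Irs2 correlated with endothelial markers such as Pecam1 and Cdh5 (r = 0.69, permutation p = 0.00162, adjusted p = 0.0324; rho = 0.72, permutation p = 0.00216, adjusted p = 0.0504). Without the 2 tumours farthest from the Irs2 median r was 0.69 (adjusted p = 0.121 by permutation), and within 40 and 160 mg/kg it was 0.45 and 0.88. In 40 mg/kg tumour 4 and 160 mg/kg tumours 3, 5 and 8, Irs2 signals were 2.2 to 3.8, near the pseudocount. Their summed endothelial signals were 320.4 to 348, and those of the other treated tumours ran from 328.3 to 501.3. Leaving out 2 tumours keeps some of these dim values in. The relation of Irs1 with neuronal maturation markers such as Stmn2 and Gap43 was negative and did not pass (r = -0.66, permutation p = 0.00584, adjusted p = 0.0779; rho = -0.69, permutation p = 0.00378, adjusted p = 0.0504). It was -0.49 within 40 and -0.72 within 160 mg/kg, and -0.73 without the 2 tumours farthest from the Irs1 median. In resistant against vehicle tumours limma called 6 of the 13 neuronal maturation genes higher and 0 lower, where 2.84% of all genes were called higher and 2.45% lower, 0 of 8 muscle genes, and 1 of 7 endothelial genes lower. The part of these cells in the levels of Irs1, Irs2 and Grb10 was not tested.

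**Figure D4:**
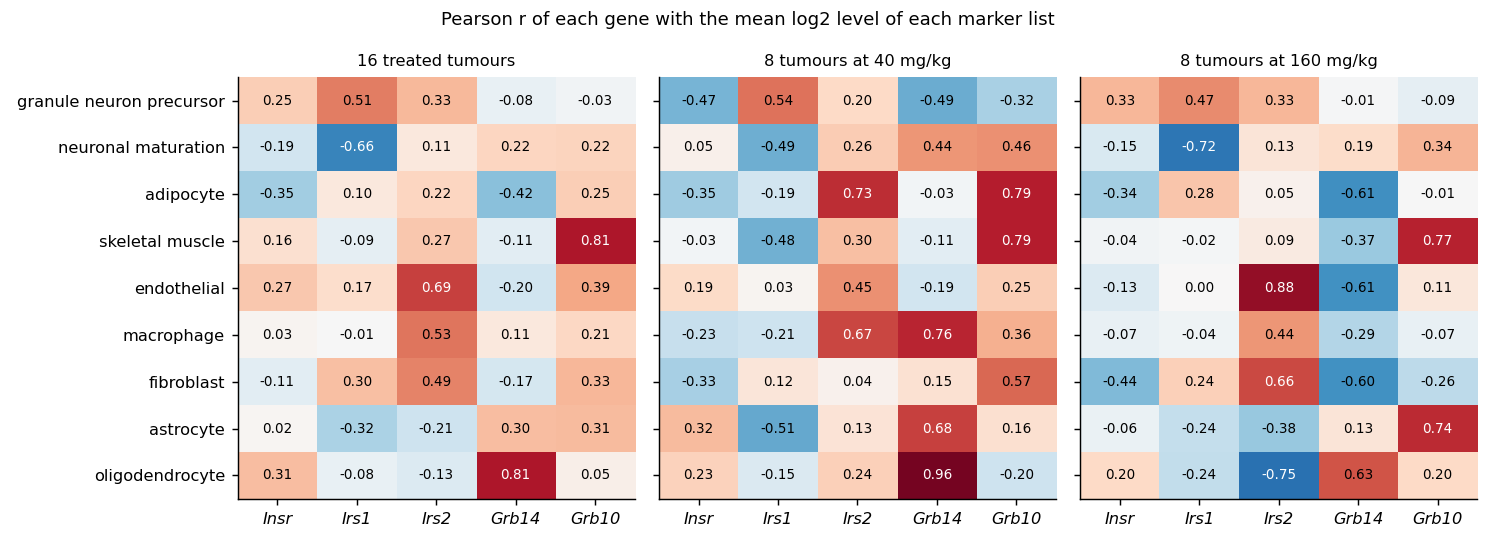
Pearson r between the log2 signal of each gene (columns) and the mean log2 signal of each marker list (rows), over all treated tumours and within each dose. Colours run from -1 (blue) to 1 (red), and the highest values over 16 tumours are 0.81 for Grb14 with oligodendrocyte genes, a list added after its values were seen, and 0.81 for Grb10 with muscle genes.

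Some genes near Grb14 on chromosome 2 were also higher in resistant than in vehicle tumours. Within 1 Mb of Grb14 the RefSeq table holds 6 other protein-coding genes, of which 5 were measured and 2 were called by limma, against 5.29% of all genes in that comparison. Scn3a, a neuronal sodium channel subunit, had signals of 3.67 ± 4.12 (SD, n = 3) in vehicle tumours, 47.8 ± 32.9 at the lower dose and 61.6 ± 28.4 at the higher dose (SD, n = 8 each), and rose in the resistant tumours by 3.17 on the log2 scale (SE 0.55, limma adjusted p = 0.00320). The size depends on the pseudocount, since its vehicle signals are close to it. The Scn3a difference was 3.71 with a pseudocount of 1 and 1.72 with a pseudocount of 16. Csrnp3, a nuclear protein gene further along, averaged 220 ± 13.2 (SD, n = 3) in vehicle tumours and 471 ± 162 and 551 ± 184 (SD, n = 8 each) at the lower and higher dose, and rose by 1.13 (SE 0.27, limma adjusted p = 0.0229). In both genes, 16 of 16 treated tumours lay above all vehicle tumours, a pattern that 1.83% of the kept probe sets showed. Csrnp3 was not called in any of the 3 fits without 1 vehicle tumour, while Scn3a was called in all 3.

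The other measured genes within 1 Mb of Grb14, among them its immediate neighbours, did not pass. Cobll1, next to Grb14 on one side, had a log2 difference of 0.59 (SE 0.47, limma adjusted p = 0.484), Fign, on the other side, 0.52 (SE 0.47, adjusted p = 0.532 with limma) and Scn2a 0.98 (SE 0.63, adjusted p = 0.376 with limma). Over the 16 resistant tumours Cobll1 had r = 0.68 with Grb14, rank 78 of 12740 genes, Scn3a 0.51 and Csrnp3 0.32, as descriptions. Around Grb10 on chromosome 11, 2 of 8 other genes were measured and 0 were called by limma. Fignl1 had -0.43 (SE 0.15, limma adjusted p = 0.108; 15 of 16 treated tumours below all vehicle tumours) and Ddc, the enzyme that makes dopamine and serotonin, 1.19 (SE 0.67, limma adjusted p = 0.305; 10 of 16 above).

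**Figure D5:**
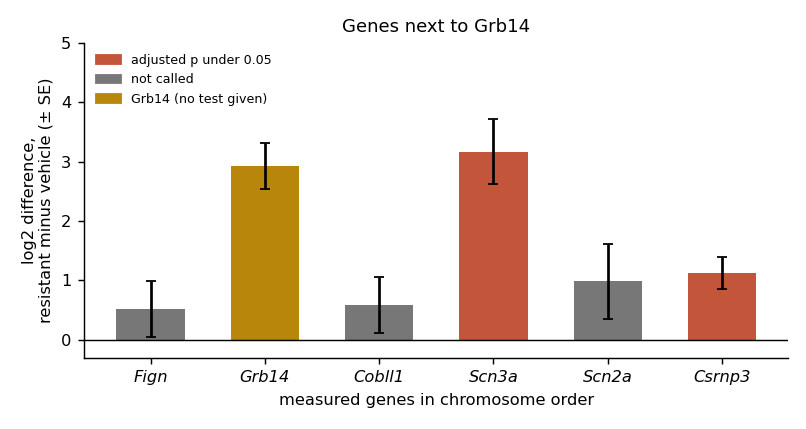
Log2 difference of resistant minus vehicle tumours (bars, with SE) for the measured genes within 1 Mb of Grb14, in chromosome order, from 16 treated and 3 vehicle tumours. Red marks genes called by limma, Scn3a (3.17) and Csrnp3 (1.13), grey those not called, and gold Grb14 (2.92), which is given without a test.

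In the main fit, other genes of insulin signalling were called at about the rate of all genes. Of 69 listed genes 56 were measured, 6 did not pass the filter, Grb7, the founding relative of Grb10 and Grb14, among them, and 7 had no probe set of their own here. In resistant against vehicle tumours limma called 1 higher and 2 lower, 5.36% of the list, against 5.29% of all genes. The median log2 difference was 0.04, and it was -0.06 over all genes. At 40 mg/kg against vehicle 1 was called higher and 0 lower (1.79%, against 2.55% of all genes), and at 160 mg/kg 1 higher and 3 lower (7.14%, against 4.89%). Between 160 and 40 mg/kg limma called 0 of 56, where 0% of all genes were called, and 6 had an unadjusted p under 0.05. Of the 31143 kept probe sets, 2122 had such a p between the doses.

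By role, limma called 0 of 2 receptors and 0 of 17 adaptors in resistant against vehicle tumours. It also called 0 of 9 PI3-kinase and Akt genes and 0 of 9 mTOR genes. In the same order, 1, 2, 4 and 1 of these genes had an unadjusted limma p under 0.05. Such p-values were common in this comparison: 14 of the 56 measured genes of the list and 6686 of the 31143 kept probe sets had one. Among 7 inhibitors Socs3, which blocks receptor kinases and their substrates, fell by 0.67 on the log2 scale (SE 0.19, limma adjusted p = 0.0457). It averaged 623 ± 45.0 (SD, n = 3) in vehicle tumours, 435 ± 89.5 at the lower dose and 369 ± 104 at the higher dose (SD, n = 8 each), and it was below all vehicle tumours in 15 of 16.

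Among 12 outputs of the pathway, Foxo1, the transcription factor that Akt keeps out of the nucleus, fell by 0.92 (SE 0.23, limma adjusted p = 0.0271). Its signals averaged 282 ± 43.9 (SD, n = 3) in vehicle tumours, 163 ± 37.0 at the lower dose and 141 ± 49.6 at the higher dose (SD, n = 8 each). All 16 treated tumours lay below all vehicle tumours, as did 2.01% of the kept probe sets. Gsk3b, a kinase that Akt inhibits, rose by 0.73 (SE 0.15, limma adjusted p = 0.00982), with 788 ± 70.7 (SD, n = 3) in vehicle tumours and 1383 ± 180 and 1277 ± 337 at the lower and higher dose (SD, n = 8 each). At 160 mg/kg against vehicle the glycogen synthase Gys1 also fell, by 0.72 (SE 0.20, limma adjusted p = 0.0443). Pik3r3, a regulatory subunit of PI3-kinase, came next with a log2 difference of 0.51 (SE 0.15, limma adjusted p = 0.0617).

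These 3 calls depended on single tumours and on settings. Without vehicle tumours 1, 2 and 3 in turn, 1, 1 and 0 genes of the list were called. Socs3 was called in 8 of the 19 fits that left out 1 tumour. It was lost without each vehicle tumour and without 8 of the 16 treated tumours, and with 6 of 11 other settings. Foxo1 was called in 16 of the 19 fits, lost without each vehicle tumour, and called with 8 of 11 settings. Gsk3b was called in 18 of the 19 fits, lost without vehicle tumour 3 (limma adjusted p = 0.103), and called with 8 of 11 settings. With the mean of its kept probe sets its log2 difference was 0.42 (limma adjusted p = 0.155). Between the doses the smallest unadjusted p-values of the list belonged to Inppl1, Gys1, Dok5 and Akt1, with log2 differences of -0.67, -0.37, -0.86 and 0.35 and limma adjusted p-values of 0.674 to 0.689.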

How the data were processed

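The authors deposited linear signal intensities made with MAS5, per the submitters' processing notes; version, scaling target and build are not given in the sources used here. MAS5 combines the probes of a probe set after background and mismatch subtraction and scales each array separately, and a mean trimmed by 2% per tail equalled 150 throughout. Probe sets were named from the platform annotation, of which 34945 had 1 symbol, 932 several and 9160 none, and 34741 Entrez identifiers matched the GRCm38.p6 RefSeq table. The series text and the platform table name different mouse 430 array versions.

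Values were taken as log2(signal + 2.5), the pseudocount being the 10th percentile of all values. A probe set was kept if 3 or more arrays had it above their 40th percentile (31143 probe sets, 13454 genes), and the brightest on average represents a gene. Tests used limma 3.58.1 (R 4.3.3) with a variance trend, two-sided, fitting 3 groups jointly (residual degrees of freedom 16), with Benjamini-Hochberg adjustment over all kept probe sets. Correlations used two-sided permutation tests, with 100000 resamples over 16 tumours and exact within 8 (scipy 1.17.1). The number of arrays limits the precision. The genes and lists were chosen with earlier results of these data known. Named genes were the 5 members, called or lowest-p pathway genes, neighbours within 1 Mb, and the genes most and least like Grb14. Replicate numbers recur across groups. Deviations of same-numbered arrays correlated at -0.128 to 0.0904 in 14 pairs, so the numbers were not taken as pairs. The fit and the permutation test were tested on simulated data. Alternatives were other scalings, pseudocounts, filters and fits, a replicate block, and leaving out arrays.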

Additional observations from a re-analysis of the deposited data

Results flagged for a closer look

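In 4 of 20 groups of 8 treated tumours, 1 tumour lay far from the others by Dixon's criterion on log2 values, which flags about 1 group in 20 by chance. All 4 were low values of dim probe sets. Irs2 had a signal of 2.4 in 40 mg/kg tumour 4, where the next lowest of that dose was 15.8. Grb10 probe set 1425457_a_at had 1.2 in 160 mg/kg tumour 4, against 12.2 in the next tumour. Insr probe set 1421380_at had 5.3 in 160 mg/kg tumour 6, against 12.5, and Insr probe set 1450225_at had 4.0 in 160 mg/kg tumour 5, against 13.9. The representing probe sets of Grb14, Grb10, Insr and Irs1 had none.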

How the results depend on the processing

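The 5 dose differences stayed below 0 and uncalled under 12 alternatives (11 for Irs2, which the filter at the 60th percentile removed). Leaving out each array, they ran from -0.54 to -0.20 for Grb14, -0.55 to -0.30 for Grb10, -0.26 to -0.16 for Insr, -0.41 to -0.18 for Irs1 and -0.91 to -0.36 for Irs2. Against vehicle, the Grb14 difference was 1.73 with a pseudocount of 16 and otherwise kept within 1 SD of its value, and without 1 array it ran from 2.51 to 3.19. The count of called pathway genes, 3, became 1 with equal array medians, 1 with the replicate block, 1 with the mean of kept probe sets, 17 with array weights and 0 after dropping vehicle tumour 3 and 160 mg/kg tumour 2, and ran from 0 to 4 without 1 array. The share of all genes called is given for the main fit only, so these counts cannot be set against all genes. By gene, limma's adjusted p for Socs3 was 0.116 with equal array medians, 0.0552 with no filter, 0.0643 with no variance trend, 0.153 with the replicate block, 0.0741 with the mean of probe sets and 0.158 without those 2 arrays. For Foxo1 it was 0.0585 with equal medians, 0.0874 with the block and 0.165 without those arrays, and for Gsk3b 0.0523 with the block, 0.155 with the mean of probe sets and 0.0839 without those arrays. The block left each dose difference uncalled, and the fit of the compared groups alone was made for the doses only. Of the 13 correlations, none past the threshold, the sign turned for Grb14 with Grb10 (0.191 as rho, 0.0940 without the 2 farthest tumours), Insr with Irs2 (-0.0353 as rho, -0.583 without the 2 farthest, -0.418 within 40 mg/kg), Grb14 with Irs1 (0.0381) and Irs1 with Irs2 (-0.0474) without the 2 farthest, Grb10 with Insr (-0.465), Insr with Irs1 (-0.609) and Grb14 with Gli1 (-0.152) within 40 mg/kg, Grb14 with Irs2 (-0.237) and Irs1 with Irs2 (-0.213) within 160 mg/kg, Grb14 with Irs2 (-0.0318) and Grb10 with Irs1 (0.0143) with equal array medians, and Insr with Irs1 (-0.0765) without 160 mg/kg tumour 2. The relations of Grb10 with muscle and Irs2 with endothelial markers, examined after the data were seen, kept their sign but passed under none of the 6 alternatives. The causes were not tested. Dim signals limit what Irs2 and the vehicle level of Grb14 can show.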
